A study of Drosophila melanogaster with 2 samples.

Results

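The 10 protein-coding genes px, CG14100, Ugalt, PNPase, Art3, CG31145, Tcs5, CG1888, CG9147 and gish carried some of the strongest promoter peaks of tagged Camta in the fly embryo. They were chosen by the signal value (column 7) of the authors' optimal IDR list on the dm6 genome. IDR, the irreproducible discovery rate, measures how consistently regions rank between replicates, and the list keeps those that pass its threshold. The members' peaks are 10 of the 2148 peaks of that list whose summit, the position of highest signal in a peak, lay within 500 bp of an annotated transcript start. These are called promoter peaks here, and the list holds 4033 peaks in all. Since signal value chose the genes, their signal values are given as a description and no test was run on them or on anything else below.

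Chromatin came from whole Drosophila melanogaster embryos, 0 to 24 h old and of mixed sex, of the strain Camta-MiMIC-GFP. In this strain an eGFP exon inserted in an intron of Camta makes a Camta-eGFP fusion from the gene's own locus, and the fusion was precipitated with an antibody to GFP. There were 2 biological replicates, numbered 2 and 3 in the labels, and no second condition, so nothing is compared between treatments or genotypes. Every value is an average over all cell types and all stages in the collection, and a strong peak in few cells cannot be told apart from a weaker peak in many.

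Camta belongs to the calmodulin-binding transcription activators (CAMTA proteins), a family that binds both DNA and the calcium sensor calmodulin and was first described in plants. The family is known to bind short elements with a CGCG core, and fly Camta is best known from photoreceptor cells, where it acts in shutting off the light response. Promoters in the compact fly genome are often divergent, meaning that neighbouring genes start back to back and share the DNA between their start sites. What the named members are known to do varies widely. The plexus gene px restricts wing vein formation, Ugalt encodes a transporter of UDP-galactose and gish (gilgamesh) a casein kinase of the gamma type. PNPase encodes polynucleotide phosphorylase, an RNA-degrading enzyme of mitochondria, Art3 an arginine methyltransferase and Tcs5 the kinase of the KEOPS complex, which modifies transfer RNAs. No role is given here for CG14100, CG31145, CG1888 and CG9147, which are named by their annotation numbers.

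The DNA under the summits of 6 members is shown because the results below turn on its composition and on the place of short motifs in it. Each window holds 50 bases to either side of the summit, which is base 51, reads 5′ to 3′ along the strand of the named gene and comes from the RefSeq Release 6 assembly, whose coordinates are those of dm6. The windows are chr3L:19590571-19590671 on the minus strand for CG14100, chrX:2703853-2703944 on the minus strand for Ugalt and chr3L:5139432-5139532 on the minus strand for Tcs5. For CG31145 the window is chr3R:23669786-23669886 on the minus strand, for gish chr3R:16280676-16280776 on the plus strand and for Art3 chr3R:15229481-15229581 on the minus strand. The Ugalt window stops after 92 bases, where the first exon begins. Capitals mark, on either strand, the CGATA core of the DNA replication-related element (TATCG when read on the other strand), TATAAA of the TATA box (TTTATA) and TCAGT of the initiator (ACTGA). The Art3 window holds no match to any of the 11 motifs searched.
CG14100: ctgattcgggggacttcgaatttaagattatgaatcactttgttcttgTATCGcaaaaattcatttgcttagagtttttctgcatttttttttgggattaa
Ugalt: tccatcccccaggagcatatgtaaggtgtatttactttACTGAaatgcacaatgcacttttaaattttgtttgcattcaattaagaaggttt
Tcs5: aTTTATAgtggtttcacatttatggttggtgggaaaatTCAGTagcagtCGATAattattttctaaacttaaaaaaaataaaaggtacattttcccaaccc
CG31145: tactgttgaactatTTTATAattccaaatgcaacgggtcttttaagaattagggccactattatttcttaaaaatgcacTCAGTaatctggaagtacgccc
gish: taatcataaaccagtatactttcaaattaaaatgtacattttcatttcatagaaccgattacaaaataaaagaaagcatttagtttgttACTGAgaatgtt
Art3: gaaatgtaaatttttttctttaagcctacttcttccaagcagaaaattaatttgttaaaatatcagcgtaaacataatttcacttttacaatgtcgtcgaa

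The longest run of A and T without a G or C is 15 bases in Tcs5, 12 in CG31145, 11 in Ugalt and in Art3, and 10 in CG14100 and in gish. The median over all 10 members was 10 bases, against 9 in the other promoter peaks (quartiles 7 and 12), so only Tcs5 exceeded the upper quartile. The CGATA core lies across the summit of the IDR list in CG14100 (bases -2 to 2 from the summit) and in Tcs5 (bases -1 to 3). Relative to that summit, the CG14100 summits of replicates 2 and 3 were at 2 and 0 bp, within the core. Those of Tcs5 were at -22 and -13 bp, off the core. The initiator letters sit at the same place in Ugalt and Tcs5, from -12 to -8 relative to the summit of the IDR list, on opposite strands relative to the gene.

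The px promoter had the highest signal value of any promoter peak, 2186, and was second to a single peak in the whole IDR list. Its peak lay at chr2R:22514085-22514523 with the summit at 22514303. The px region was the strongest of all 30000 relaxed regions in replicate 2, with a signal value of 890.5, and ranked 2 of 29279 in replicate 3, with 1302. Relaxed regions are the authors' calls at a loose threshold, one list per replicate and one for the pooled reads. The lists may be scaled differently, so only ranks are set side by side across them.

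CG14100 and Ugalt followed. CG14100 had an IDR signal value of 2091 at chr3L:19590416-19590825 and ranked 3 in the IDR list, in replicate 2 (signal value 799) and in replicate 3 (1295). Ugalt had 1841 at chrX:2703675-2704087 and ranked 5 in all 3 lists, with 712 in replicate 2 and 1129.8 in replicate 3. The order of these genes was therefore nearly the same in both replicates.

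The remaining 7 members lay closer together, between 1244 and 1472. PNPase had 1472 at chr3R:31404475-31404879, with 534 in replicate 2 (rank 10) and 942 in replicate 3 (rank 9). Art3 had 1333 at chr3R:15229343-15229734, with 481 in replicate 2 (rank 15) and 857 in replicate 3 (rank 11). CG31145 had 1283 at chr3R:23669613-23670050 and ranked 13 in both replicates, with 485 in replicate 2 and 801 in replicate 3. These promoters kept places within 4 ranks of each other between replicates.

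Tcs5 and CG1888 moved most between replicates, in opposite directions. Tcs5 had an IDR signal value of 1279 at chr3L:5139317-5139686 and ranked 27 in replicate 2, with 427, but 12 in replicate 3, with 856. CG1888 had 1255 at chr2R:9547005-9547400 and ranked 9 in replicate 2, with 541, but 19 in replicate 3, with 718. At the lower end stood CG9147 and gish, whose IDR signal values were both 1244. CG9147, at chr2L:6065922-6066279, had 475 in replicate 2 (rank 16) and 771 in replicate 3 (rank 14). For gish, at chr3R:16280518-16280947, the values were 523 in replicate 2 (rank 12) and 722 in replicate 3 (rank 18). All 10 members were thus among the 27 strongest regions of replicate 2 and the 19 strongest of replicate 3. Both replicates entered the IDR list, so their values are not independent of the choice.

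**Figure D1:**
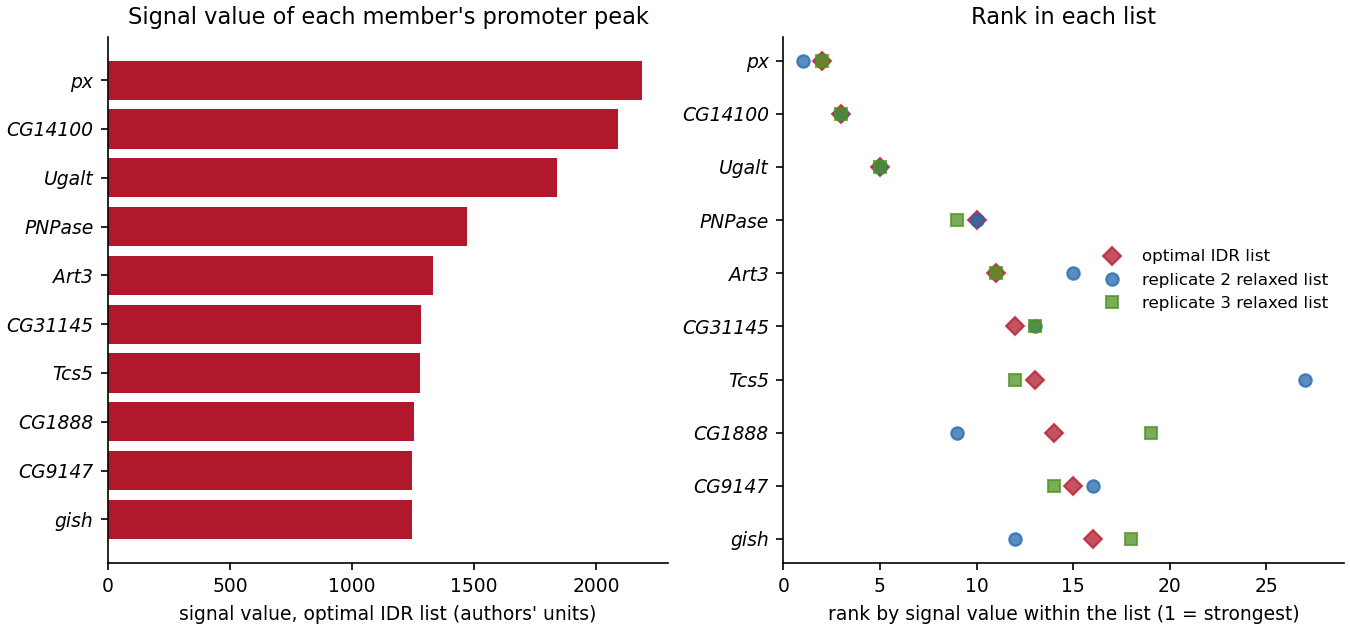
The left panel shows the signal value of each member's promoter peak in the optimal IDR list, in the authors' units, as bars from 0, and the right panel its rank by signal value in the IDR list (diamonds), the replicate 2 list (circles) and the replicate 3 list (squares), with 1 the strongest. Bars run from 1244 for gish to 2186 for px, and the ranks lie furthest apart for Tcs5, at 27 in replicate 2 and 12 in replicate 3.

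The members are not simply the strongest promoter peaks in order. The promoter peaks at places 4, 5 and 6, nearest to Chro (1635), ph-p (1589) and mRpL41 (1550.2), are not among them. The member just inside the choice was gish at place 13, and just outside it, at place 14, lay a peak of 1209 near lncRNA:CR44619. The members' median signal value was 1308, against 148 for the 2138 other promoter peaks, with quartiles of 115.2 and 232. The q value of the list does not separate the members, since all 10 share its largest −log10 q value, 3.84, with 3462 of the 4033 IDR peaks.

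Each member had exactly 1 overlapping region in each replicate, and the replicate summits lay close together. The distance between them was 0 bp for CG31145, 1 bp for Ugalt and for PNPase, and 2 bp for CG14100. It was largest for px, at 20 bp, and for Art3, at 18 bp. The members' median was 7 bp, against 27 bp (quartiles 10 and 60) for the 2134 other promoter peaks with a region in both replicates. No median was taken for other peaks of like signal value, so close summits are not shown to be particular to the members. Peak widths ran from 358 to 439 bp, and none was 424 bp, the width of 1681 of the 2148 promoter peaks (78.3%). The non-member peaks of like rank near Chro, ph-p, mRpL41 and lncRNA:CR44619 were not 424 bp wide either. Another width is therefore not particular to the members.

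The members' summits lay within 500 bp of a transcript start by definition, and mostly on the upstream side. In 8 of 10 members the summit of the IDR list was upstream of the nearest start site, a share near the 79.5% of all promoter peaks. CG9147 is not among the 8, but its summits in both replicates lay just upstream of that start. The members' median distance was 110 bp, against 109 bp for the other promoter peaks (quartiles 52 and 206), so the members' peaks were no nearer to start sites. Signed by the gene's direction, with negative values upstream, the medians were -110 bp for the members and -86 bp for the others.

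Of the members, 5 had a divergent promoter, with start sites of a second gene on the opposite strand within 1 kb of the summit, against 46.6% of all promoter peaks. With start sites only within 500 bp, 3 members, Art3, Tcs5 and CG9147, were divergent, against 37.7% of all promoter peaks. The members' shares were near these backgrounds. The other 5 members, px, CG14100, CG31145, CG1888 and gish, had no start site of another gene within 1 kb, and 47.6% of all promoter peaks were single in this sense.

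Art3 and Tcs5 had the most symmetrical divergent promoters. The Art3 summit lay 123 bp upstream of the Art3 start and 134 bp upstream of mRpS10, which encodes a protein of the mitochondrial ribosome, in an interval of 257 bp between the starts. A further mRpS10 start lay 171 bp away. The Tcs5 summit lay 87 bp upstream of Tcs5 and 137 bp upstream of CHMP2B, which encodes a subunit of the ESCRT-III membrane-remodelling complex, in an interval of 224 bp. Both summits of the IDR list were in the intergenic DNA between the starts, about midway in Art3 and nearer to the member gene in Tcs5. This contrast rests on that list. From the member's start, the Tcs5 summit was at -109 bp in replicate 2 and -100 bp in replicate 3, nearer the middle. The Art3 summit was at -106 bp in replicate 2 and -124 bp in replicate 3.

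In the other 3 divergent promoters the summit was clearly on the member's side or outside the interval. The Ugalt summit lay 42 bp and 149 bp upstream of the Ugalt starts and 677 bp from the start of eIF2Bbeta, which encodes a subunit of the exchange factor of translation initiation, in an interval of 719 bp. The PNPase summit was inside the gene's 5' UTR, 79 bp downstream of one PNPase start and 93 bp upstream of another, with a further PNPase start 791 bp upstream of the summit. Its divergent neighbour Gprk2, a G protein-coupled receptor kinase gene, started 584 bp from the summit, and the summit lay outside the 505 bp between the nearest divergent starts. The further PNPase start lay beyond the Gprk2 start, so Gprk2 starts inside the annotated PNPase gene, and those starts are not divergent. At CG9147 only 44 bp separated the starts of CG9147 and Fbw5, which encodes an F-box protein. The CG9147 summit of the IDR list lay past both, 145 bp upstream of Fbw5 and downstream of both CG9147 starts, at 6065997 and 6066087, the nearer of them 11 bp away. The replicates' own summits lay upstream of the start at 6066087 instead, at -11 bp in replicate 2 and -3 bp in replicate 3.

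At the 5 single promoters the summit was always upstream of the start it belonged to. The distance was 97 bp at CG14100, 163 bp at gish, 177 bp at CG31145, 204 bp at px and 227 bp at CG1888. The CG14100 and CG31145 summits were intergenic. Those of px and gish lay in introns and that of CG1888 in a 5' UTR, because other transcripts of these 3 genes start further upstream.

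**Figure D2:**
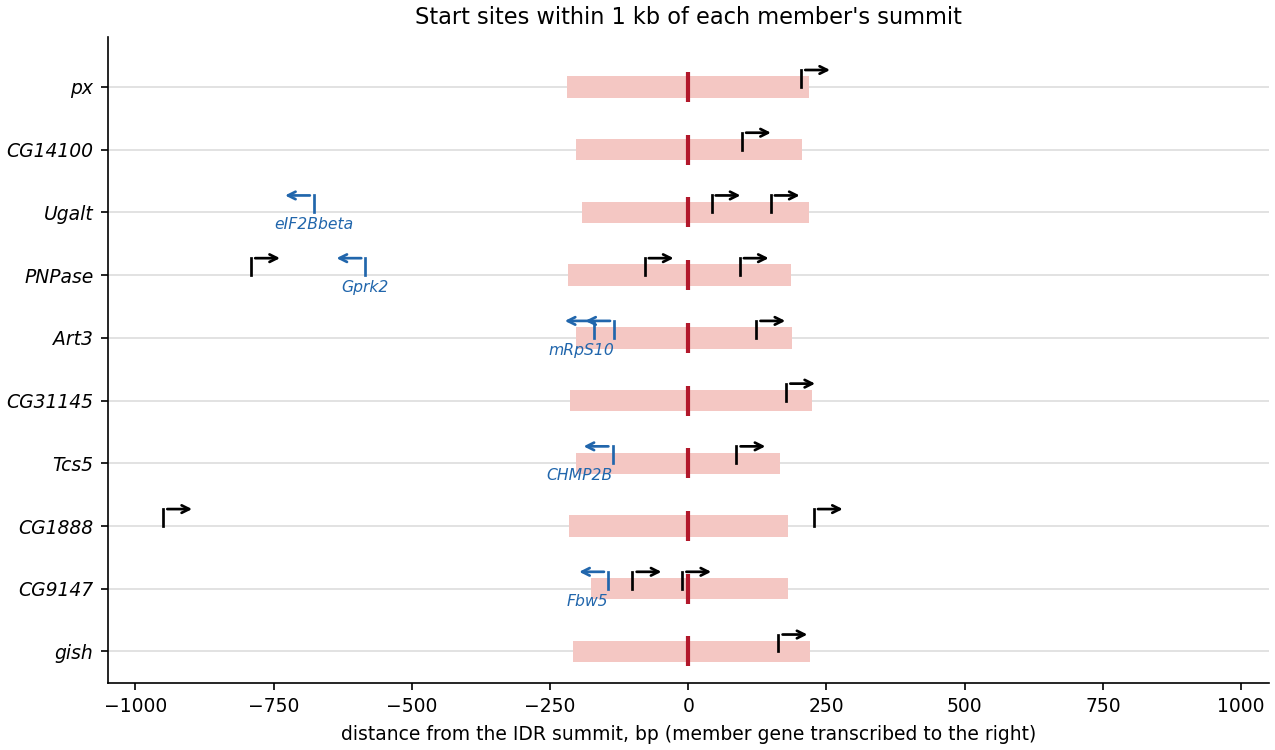
Annotated start sites within 1 kb of each member's summit, drawn to scale in bp with the member gene transcribed to the right: pale bars are the IDR peaks, red ticks the summits, black arrows start sites of the member and blue arrows those of the named neighbour. Only Art3, Tcs5 and CG9147 have a neighbour's start within 500 bp. The CG9147 summit of the IDR list alone lies past all drawn starts, unlike its replicate summits, which are not drawn.

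Several members have start sites elsewhere with little or no signal within 500 bp. In px, a gene with starts at 3 places on chr2R (22514099, 22546558 and 22562065), the peak was at the first. The other px starts, 32255 bp and 47762 bp from the member summit, had no IDR peak within 500 bp, and their strongest pooled relaxed regions within that distance had signal values of 49.5 (rank 10791 of 30000) and 38.9 (rank 16494). Further off but within 1 kb lay a pooled region of 89.8 (summit 22545881) for the start at 22546558. For the start at 22562065 an IDR peak of 98.5 (summit 22561291) lay there. The pooled list uses the same signal scale as the IDR list, since the IDR peaks appear in it with the same values. In gish the peak was at the start at 16280889 on chr3R, and the starts at 16272452, 16273001 and 16289294 had neither an IDR peak nor a pooled region within 500 bp. A relaxed region of replicate 2, with a signal value of 20.1 and rank 14279, was the only one near them. CG1888 differed in that its upstream start at 9548135 had an IDR peak within 500 bp, with the summit at -183 bp and a signal value of 96.4 (rank 3961), against 1255 at its start at 9546958.

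Further IDR peaks inside the gene body were found in px and CG31145 only, that is in 2 of 10 members, against 14.8% of the 2619 protein-coding genes with a promoter peak. These are long genes, 67769 bp for px and 63909 bp for CG31145. Among genes of 30 kb or longer, 118 of 167 (70.7%) had a further IDR peak, and among shorter ones 270 of 2452 (11.0%). Of the members, 2 of the 3 long ones and 0 of the 7 shorter ones had one. This length was picked after the values were seen.

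The 5 further IDR peaks of px were all intronic and all far weaker than the promoter peak. Their summits were at 22510959 (signal value 109, rank 3264), 22511659 (157, rank 1824), 22538252 (144, rank 2071), 22548274 (114, rank 3062) and 22561291 (98.5, rank 3827). The nearest lay 2644 bp from the promoter summit and the farthest 46988 bp. They ranked between 1236 and 4227 in replicate 2 and between 2267 and 5923 in replicate 3. The widest gap between the replicates was at 22548274, with 69.5 in replicate 2 (rank 1552) and 44.4 in replicate 3 (rank 5923).

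The 3 further IDR peaks of CG31145 were also intronic. They lay 11484, 16913 and 23273 bp downstream of the start site, with summits at 23658175 (signal value 221, rank 1018), 23652746 (121, rank 2768) and 23646386 (176, rank 1521) on chr3R. The strongest of them ranked 609 in replicate 2, with 113, and 1504 in replicate 3, with 108. No further IDR peak in any member thus came near its promoter peak in signal value.

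The relaxed regions of the members were mainly in the long genes. The pooled list, which includes the IDR peaks, had 71 further summits in the 10 gene bodies, of which 8 were the IDR peaks described above and 63 were not IDR peaks. There were 44 in px, 14 in CG31145, 6 in gish, 5 in CG1888 and 1 each in CG14100 and PNPase. Ugalt, Art3, Tcs5 and CG9147 had none, in the pooled list or in either replicate. In px there were 36 in replicate 2 and 40 in replicate 3, and in CG31145 14 in replicate 2 and 19 in replicate 3. Some pooled regions overlap each other, and the px region with summit 22548530 overlaps an IDR peak. The pooled counts are therefore not all of separate sites. Of the 71, 13 had a q value of 0.01 or less, namely the 8 IDR peaks, 4 further regions in px and 1 in CG1888. Per kilobase of gene, further pooled regions numbered 0.649 in px, 0.219 in CG31145, 0.186 in gish and 0.808 in CG1888. CG14100 had 0.688 and PNPase 0.257, from 1 region each in short genes. The values were 0.266 over all protein-coding genes of 30 kb or longer with a promoter peak and 0.318 over the shorter ones. The whole chromosome arms had 0.224, which counts every pooled region, promoter peaks included. CG31145, PNPase and gish were thus near the level of the arms and px, CG14100 and CG1888 above it. This describes single genes, with no test.

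In gish the strongest further region had a signal value of 72.8 (rank 5905), in an intron 4513 bp from the promoter summit. In CG1888 it had 82.8 (rank 4885), in the 3' UTR. The promoter peaks of both genes were the only IDR peaks within their bodies. The nearest other IDR summit of any kind was 1133 bp away for CG1888 and 39395 bp away for Ugalt, the shortest and the longest such distance among the members.

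**Figure D3:**
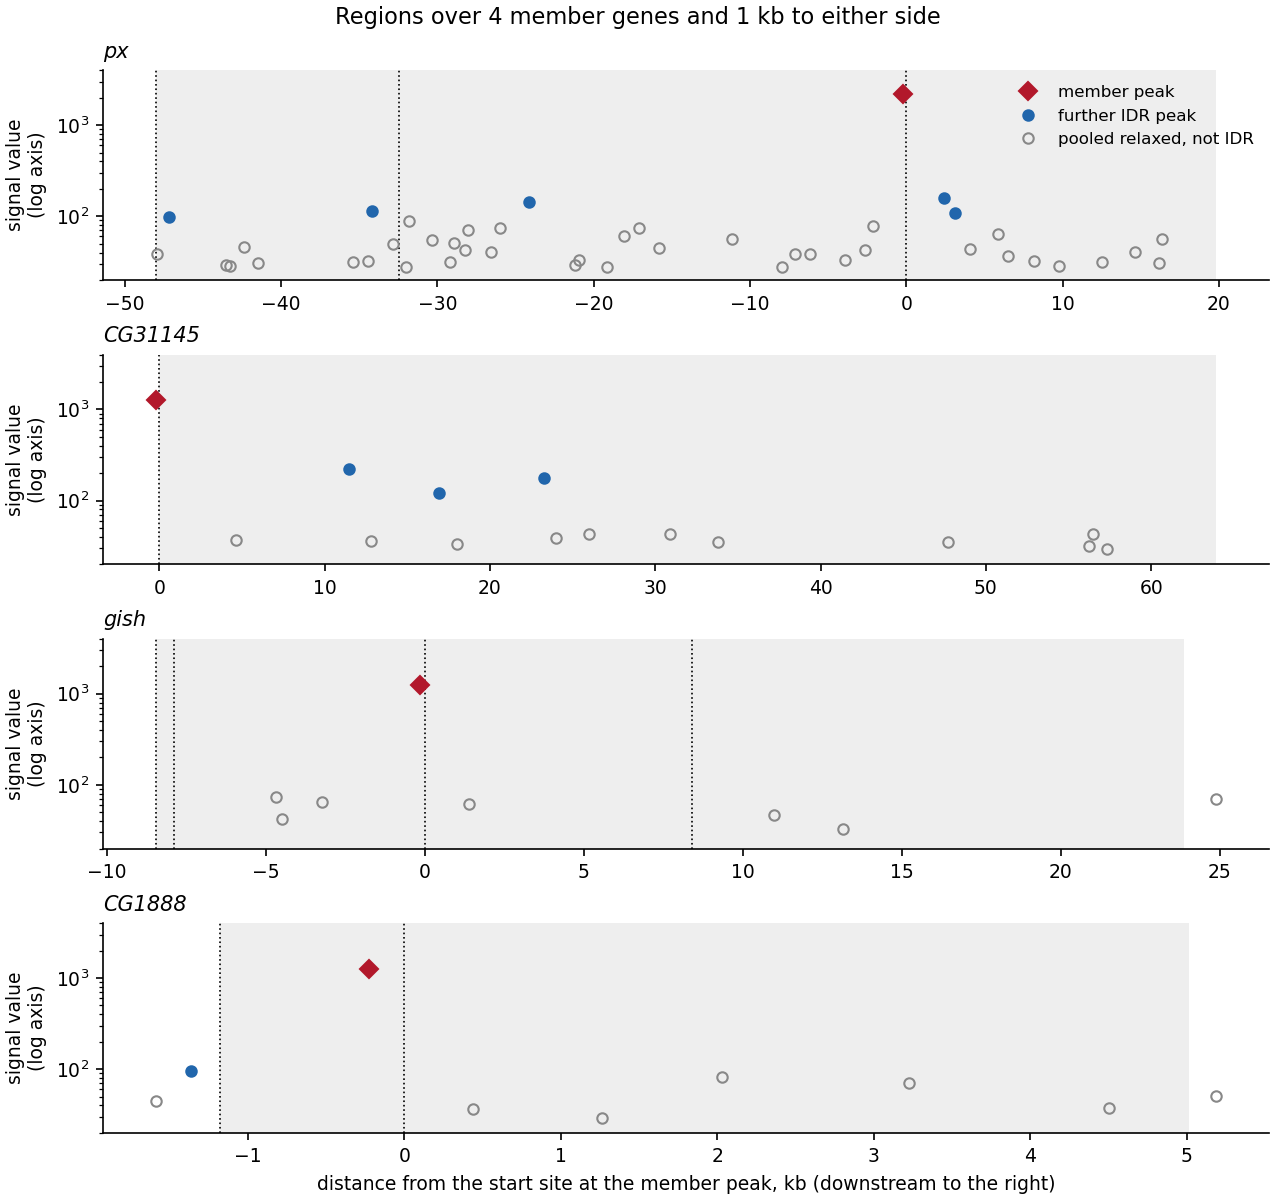
Signal value on a log axis of all pooled relaxed and IDR regions over px, CG31145, gish and CG1888 and 1 kb to either side, against the distance in kb from the start site at the member peak: red diamonds are the member peaks, blue dots further IDR peaks, open circles pooled relaxed regions that are not IDR peaks, dotted lines start sites and grey the gene body. Further IDR peaks lie in the bodies of px (5) and CG31145 (3) and just upstream of CG1888 (1), none above 221, against at least 1244 for the member peaks.

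The summits lay in DNA poor in G and C. Within 50 bp of the summit on either side, G and C made up 23.8% in gish, 26.7% in Art3, 27.7% in px, 29.7% in Tcs5 and 31.7% in CG14100. The values were 32.7% in CG9147, 33.7% in Ugalt and in PNPase, 34.7% in CG31145 and 39.6% in CG1888. The members' median of 32.2% compares with 36.6% for the other promoter peaks, whose quartiles of 29.7% and 44.6% enclose it. Split into 4 groups by signal value, from the weakest to the strongest, those other peaks had medians of 40.6%, 37.6%, 35.6% and 32.7%. The members' median was close to that of the strongest of these groups.

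The flanks were richer in G and C than the summit. Taking the mean of windows of the same width centred 500 bp upstream and downstream, the difference of summit minus flanks had a median of -17.8 percentage points in the members, against -8.42 in the other promoter peaks, with quartiles of -17.3 and 1.49. Unlike GC content at the summit, this difference was not computed for the other peaks split by signal value. It is therefore not shown to be particular to the members. It was largest in CG9147, where the flanks held 63.4% upstream and 60.4% downstream, and only -0.495 in CG1888, with 41.6% upstream and 38.6% downstream. The rise was one-sided in CG14100, Ugalt and CG31145, where the upstream windows held 33.7%, 34.7% and 35.6% and the downstream windows 54.5%, 58.4% and 45.5%. Averaged over members, GC content was lowest at the summit itself, 31.4 ± 4.55% (SD over 10 genes), and 52.2 ± 3.46% at 250 bp downstream. For the other promoter peaks the means were 37.2% at the summit and 47.0% at 250 bp downstream, and their lowest mean, 35.4%, was 50 bp upstream of the summit.

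**Figure D4:**
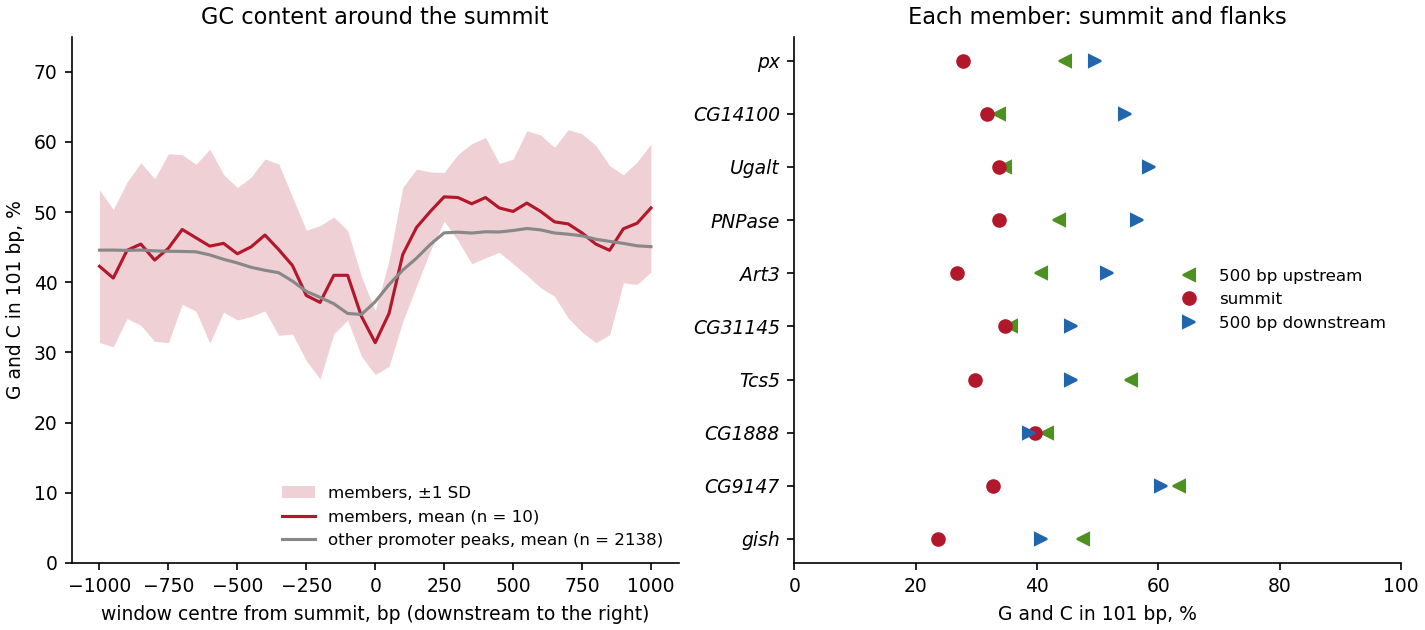
The left panel shows the percentage of G and C in windows that reach 50 bp to either side of their centre, against the distance of the window from the summit in bp, as the mean over the 10 members with a band of 1 SD and the mean over the 2138 other promoter peaks, and the right panel shows each member's values at the summit and 500 bp to either side. The members' mean dips to 31.4% at the summit, and only CG1888 has a flank below its summit value.

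No motif of the panel of 11 was found in all members when exact matches on either strand were sought at most 50 bp from the summit. The CGCG core of the family's known element was in 0 members, against 15.3% of all promoter peaks. Its nearest copy lay between 87 bp (Ugalt) and 398 bp (PNPase) from the summit. Over the whole peak, a window chosen after the values were seen, 8 members had a CGCG, all but px and PNPase, against 51.6% of all promoter peaks. Of the strings of like composition, GCGC was within 50 bp of the summit in 1 member, PNPase, against 21.3% of all promoter peaks. CCGG was there in 0, against 10.1%. Over the whole peak, GCGC was in 6 members, against 61.7%, and CCGG in 5, against 39.0%. The letters TCAGT were likewise in 8 members over the whole peak, against 51.8%, and CGATA in 7, against 54.5%.

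Letters of core promoter elements were found in some members, but not at annotated start sites. The initiator letters TCAGT were in 5 members, Ugalt, CG31145, Tcs5, CG1888 and gish, against 18.2% of all promoter peaks. In Ugalt, CG1888 and gish they were on the strand opposite to the gene, and the nearest start site lay between 50 bp (Ugalt) and 270 bp (CG1888) from the match. At most 25 bp from the summit, 2 members had them, against 9.92%. TATAAA was in 2 members, CG31145 and Tcs5, against 16.9%. The shown windows place both TATAAA matches on the strand opposite to the gene and upstream of the summit, from -36 to -31 in CG31145, 208 bp from the nearest start site, and from -49 to -44 in Tcs5, 88 bp from the CHMP2B start.

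The CGATA core was in 3 members, CG14100, Tcs5 and CG9147, against 23.7% of all promoter peaks. The full element TATCGATA, which contains that core and binds the factor DREF, was in 0 members, against 3.96%. Over the whole peak it was in 1 member, CG9147, against 11.8%. The other motifs were absent from the windows of all 10 members, where such absence says only that these letters are not there. They were Motif 1 (GGTCACAC), in 2.23% of all promoter peaks, the E-box CAGCTG, in 5.77%, GAGAG, in 10.6%, and CAGGTA, in 1.58%. The px window, like that of Art3, held none of the 11 motifs.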

How the data were processed

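Peak lists from 2 ChIP-seq libraries of Camta-eGFP embryos were used, on dm6 only. Per the file records, the authors called a relaxed list for each replicate and for the pool, each with 1 further file common to all and taken here as the control, and made the optimal IDR list from these. The sources used here name no aligner or peak caller. Each region's signal value was deposited by the authors without its scaling, and its q value was deposited by the authors as −log10. No list gives read counts, so depth is unknown and no interval can be given. The replicate lists held different values, and each was counted as 1 of 2 biological replicates.

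The genes, motifs and settings were chosen with earlier results of these data known. Named genes were the 10 members, genes starting within 1 kb of their summits, and the promoter peaks next to them in rank. Start sites came from Ensembl release 115 (BDGP6.54) and sequence from RefSeq Release 6. Distances, classes, GC content and exact motif matches were computed in Python 3.11.15 with NumPy 2.4.6 and drawn with matplotlib 3.10.9. The code was tested on simulated data. Alternatives were other windows and distances, protein-coding genes only, a q value limit and each replicate alone. Windows of 4 members are not printed, and the 4 dm3 lists and the control were not analysed here.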

Additional observations from a re-analysis of the deposited data

How the results depend on the processing

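Of 49 alternative values, 31 stayed within the limits set for each result, 18 moved and 0 reversed. Members with divergent promoters numbered 3 with start sites within 500 bp or within 250 bp, against 5 within 1 kb. The 71 further pooled regions fell to 13 at a q value of 0.01 or less. Median GC content at the summit was 27.5% within 25 bp and 36.6% within 100 bp of it, and 31.2% to 32.2% with either replicate left out. Summit minus flanks was -19.6 percentage points within 25 bp, -12.6 within 100 bp, -15.3 with flanks 1000 bp away, and -17.8 to -16.1 with either replicate left out. Within 25 bp, TATAAA was in 0 members, against 8.80% of all promoter peaks, GCGC in 0, against 10.8%, and TCAGT in 2, against 9.92%. Within 100 bp, CGCG was in 3 members, against 28.9% of all promoter peaks, and GCGC in 2, against 37.8%. CCGG was in 1 member, against 20.7%, and GAGAG in 1, against 21.7%. The lowest rank of a member was 19 in replicate 3 alone and 27 in replicate 2 alone, against 16 in the IDR list. Wider windows hold more sequence by construction, and the cause of the other changes was not tested. No paired analysis was possible because there is 1 group. Depth is unknown, so the precision of any single signal value cannot be stated, and 10 genes limit every count to steps of 1 in 10.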

Other observations

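Strings of 6 bases, 2080 in number with each counted as 1 with its reverse complement, were counted within 50 bp of the summit. The 3 given here were picked, after the values were seen, because their share in the members exceeded that in the other promoter peaks by most. With 10 members and so many strings, large differences can arise from the picking alone, so the counts describe these windows and no property of the promoters is drawn from them. CTTTTA was in 6 of the 10 members, against 11% of the 100 next strongest promoter peaks and 9.72% of the remaining 2038. CTTAAA was in 5 members, against 28% of the next strongest and 12.6% of the remaining ones. TACTGA, which holds the initiator letters on its other strand, was in 4 members, against 1% of the next strongest and 3.48% of the remaining ones.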
